A study of Mus musculus with 6 samples.

Results

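Cycling monocytes and macrophages were the myeloid cells of MC38 tumours in which both Mki67, the gene of a nuclear protein of dividing cells, and Top2a, the DNA topoisomerase that untangles replicated chromosomes, were detected. The cells were taken from a monocyte and macrophage gate: at least 3 UMIs (counted transcript molecules) of Lyz2, the lysozyme of myeloid cells, at least 1 UMI of Csf1r, Adgre1 or Cd14, and no UMI of Cd3e, Flt3, Cxcr2 or Retnlg, which mark T cells, dendritic cell precursors and neutrophils. The gate held 10605 cells, and 95 of them had at least 1 UMI of Mki67 and at least 1 of Top2a. These 95 were chosen from 41679 barcodes, of which 39424 passed the filters on genes, UMIs and mitochondrial counts.

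CD45+ leukocytes had been sorted from subcutaneous tumours of MC38, a mouse colon adenocarcinoma line, 25 days after inoculation, and sequenced with 10x 5′ chemistry together with T cell receptor (TCR) transcripts. The cko samples (n = 3) came from mice in which Ctcf, the gene of the chromatin insulator protein CTCF, had been knocked out in regulatory T cells (Tregs) by a tamoxifen-inducible system, and the ctr samples (n = 3) from mice with Ctcf WT in Tregs. Tumour cells were wild type in both groups, and the labels call the samples biological replicates; strain, age and the driver of the inducible system are not given in the sources used here. The labels name no targeted change in myeloid cells.

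Tumour macrophages arise largely from blood monocytes that enter the tumour, lose Ly6C and gain macrophage genes, and some of the resulting macrophages divide locally, driven by CSF1 and related growth factors. In a dividing cell, replication licensing and DNA synthesis genes are transcribed in late G1 and S phase under E2F factors, and mitosis genes in G2 under the MuvB complex with B-MYB and FOXM1. C1q, a complement component made by mature tissue macrophages, and arginase 1 (Arg1), an arginine-degrading enzyme of tumour myeloid cells, mark contrasting states of tumour macrophages.

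The 6 libraries held 6125 to 7577 barcodes and 45322797 to 55515267 UMIs each. In Foxp3-positive T cells, the targeted gene Ctcf had 77.2, 68.9 and 65.6 UMIs per 1000000 (CPM) in cko samples 1, 2 and 3, against 71.3, 75.0 and 97.8 CPM in ctr samples 1, 2 and 3, so the first cko sample overlapped the ctr range; a 5′ tag may lie outside the deleted part and then does not test the deletion. The samples cko 1 and cko 3 shared 197 paired TCR clonotypes, whereas every other pair of samples shared 0 to 3, so results are also given with these cko samples added together as 1 sample. Pairs of libraries shared 41 to 81 cell barcodes, and no cycling cell's barcode occurred in more than 1 library's cycling cells.

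Myeloid markers were present, at somewhat lower levels than in the rest of the gate. All 12 monocyte and macrophage markers were detected at 20 CPM or more in the cycling or the non-cycling cells, and none of the 12 was higher in the cycling cells of all 6 samples while 5 were lower in all 6. Of all 5816 genes at that level, 11.9% were higher and 8.32% lower in all 6. Lyz2, a gene of the rule, had 3181, 5756 and 2011 CPM in cycling cells of cko samples 1, 2 and 3, and 4355, 2314 and 3805 CPM in those of ctr samples 1, 2 and 3. The non-cycling gate cells, defined throughout as the 9606 gate cells with no UMI of Mki67 or Top2a, had 7208 to 9591 CPM of Lyz2.

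Markers of other lineages stood beside this. At least 3 UMIs of a T, NK, B or plasma, neutrophil, dendritic, mast, tumour or stromal marker list were found in 42 of 95 cycling cells (44.2%), against 1047 of 9606 non-cycling cells (10.9%). Among non-cycling cells cko sample 2 stood apart at 21.0%, against 9.26% to 11.0% in the other 5 samples, and its B and plasma cell markers summed to 314.5 CPM in all gate cells, against 4.57 to 28.3 CPM elsewhere. Dendritic cell markers reached that level in 15 cycling cells, T cell markers in 14 and NK cell markers in 10. A TCR contig was found in 2 of 95 cycling cells, both cko, against 19 of 9606 non-cycling cells (0.198%) and 87.4% of T cells. Among the cells with the highest scores of Scrublet, a doublet caller, were 23 cycling cells (24.2%), against 2.37% of non-cycling cells. Cycling cells were also deeper, with a median of 15152 UMIs against 7480 UMIs in non-cycling cells, and the part of depth and of doublets in these markers was not tested.

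Cycling cells formed a smaller share of the gate in each cko sample than in each ctr sample when all UMIs were used. There were 4, 6 and 9 cycling cells in cko samples 1, 2 and 3, which is 0.254%, 0.652% and 0.515% of 1578, 920 and 1748 gate cells. In ctr samples 1, 2 and 3 there were 24, 25 and 27 cycling cells, which is 1.59%, 0.925% and 1.26% of 1512, 2704 and 2143 gate cells. The groups did not overlap, and the means were 0.474 ± 0.203% in cko and 1.26 ± 0.331% in ctr (SD, n = 3 each; exact two-sided permutation p = 0.1, the smallest that 3 against 3 samples can give). The widest 95% Wilson interval among cko samples ran from 0.299% to 1.42%; these intervals cover counting error only.

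The gate cells of cko samples were shallower, with medians of 6340, 7232 and 7110 UMIs in cko samples 1, 2 and 3 against 8083, 9000 and 7721 UMIs in ctr samples 1, 2 and 3, and a cell with fewer UMIs is less often seen to carry both genes. Each cell was therefore thinned at random to 2610 UMIs, leaving out 426 shallower gate cells in cko and 634 in ctr. After thinning, 2 of 1446, 3 of 802 and 3 of 1572 gate cells carried both genes in cko samples 1, 2 and 3, and 5 of 1341, 6 of 2475 and 11 of 1909 in ctr samples 1, 2 and 3. The thinned shares overlapped between groups, with means of 0.234 ± 0.124% in cko and 0.397 ± 0.168% in ctr (SD, n = 3 each), a difference of -0.163 percentage points with an exact two-sided permutation p of 0.3. Without gate cells that carried 3 UMIs of another lineage list, the thinned difference was -0.0116 percentage points (exact permutation p = 0.9), while the shares from all UMIs were 0.271 ± 0.179% in cko and 0.814 ± 0.241% in ctr (SD, n = 3 each; exact permutation p = 0.1). A difference in the thinned share was thus not detectable at this depth.

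**Figure D1:**
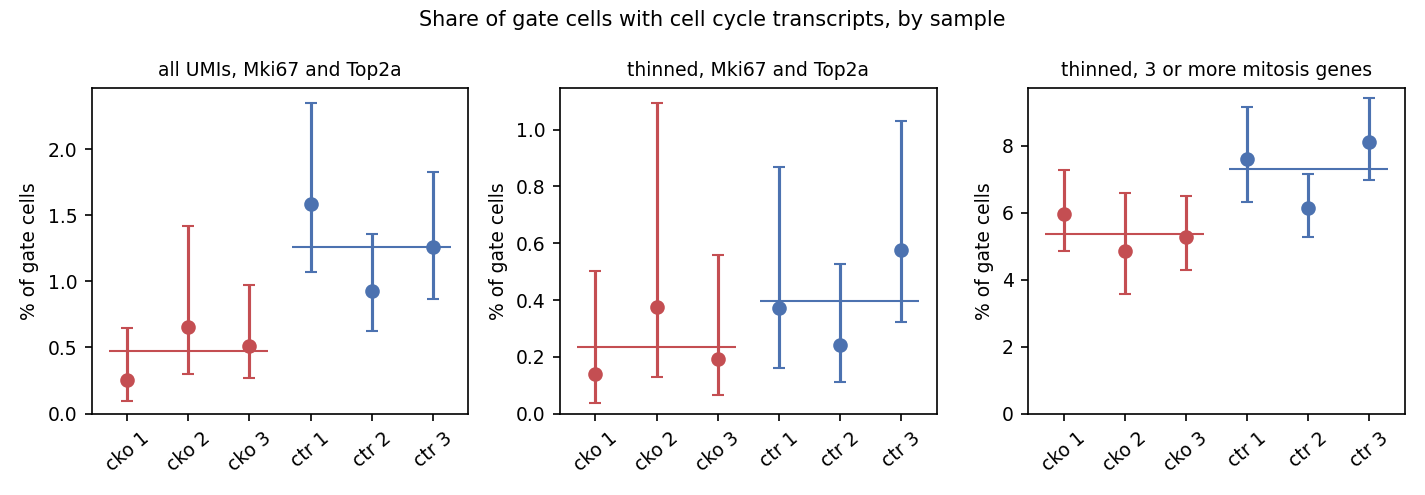
Percent of gate cells (vertical axes) in each sample with Mki67 and Top2a from all UMIs (left) and after thinning (middle), and with at least 3 genes of the mitosis list after thinning (right). Points are samples, bars are 95% Wilson intervals, horizontal lines are group means; cko samples lie below all ctr samples in the left and right panels and overlap them in the middle panel.

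The share of cells with both genes was set beside that of cells that are mostly non-dividing. Both genes were found in 2 of 185 neutrophils (1.08%, Wilson interval 0.297 to 3.86%; median 3203 UMIs) and in 2 of 131 mature dendritic cells (1.53%, 0.420 to 5.40%; median 10324 UMIs). The share in the gate, 95 of 10605 or 0.896% at a median of 7690 UMIs, lay inside both intervals, which rest on 2 positive cells each, so the share could not be told apart from this background. T cells, which divide in tumours, carried both genes in 11.1 ± 2.55% of cko and 10.7 ± 3.46% of ctr cells (SD, n = 3 each; exact permutation p = 0.7).

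The other cell cycle genes of these cells set them apart from the rest of the gate. After thinning, 67 of 94 cycling cells (71.3%) carried at least 3 genes of the mitosis list, against 441 of 8588 non-cycling cells (5.14%), 14 of 120 neutrophils (11.7%) and 7 of 117 mature dendritic cells (5.98%). Cells just inside and just outside the rule were graded. The 42 genes of the mitosis list together had 4947 CPM in 12 cko cells and 5015 CPM in 55 ctr cells with more than the minimum of 1 UMI of each gene. In cells with exactly 1 UMI of each, the sum was 883 CPM over 7 cko cells and 1641 CPM over 21 ctr cells. In cells with only 1 of the genes it was 599 CPM in 280 cko cells and 904 CPM in 624 ctr cells, and with neither gene 491 CPM in cko and 465 CPM in ctr. The 28 cells at the minimum thus lay nearer to the cells outside the rule than to the 67 others.

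**Figure D2:**
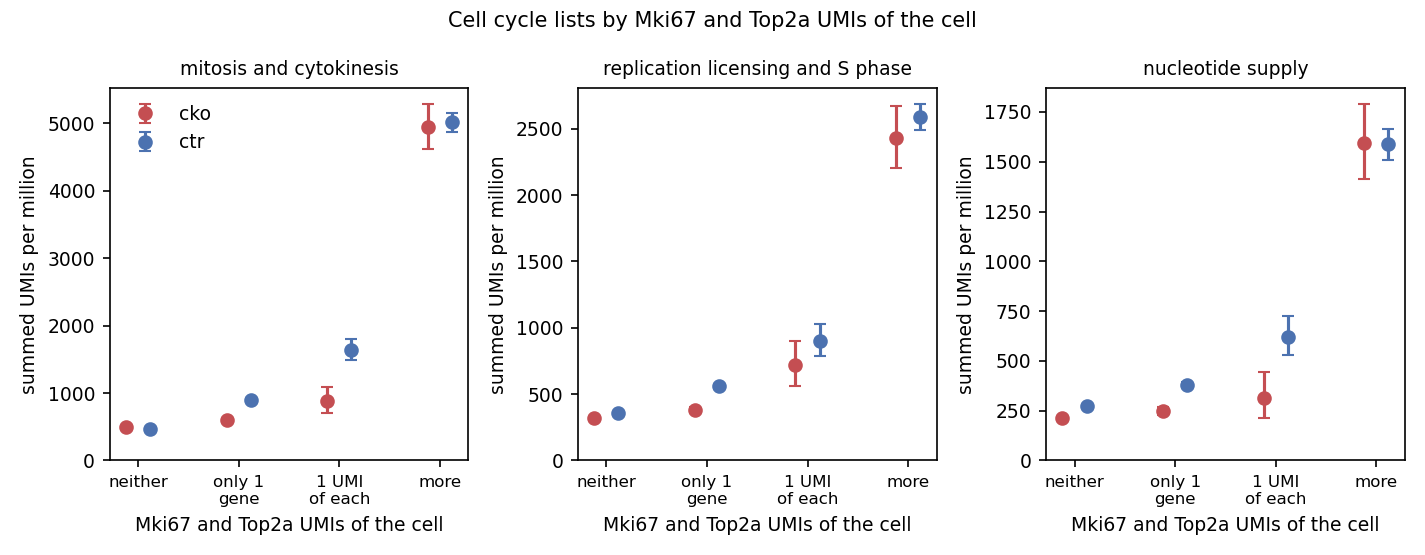
Summed CPM (vertical axes) of the mitosis, S phase and nucleotide supply lists in gate cells grouped by their UMIs of Mki67 and Top2a (horizontal axes; "more" means at least 1 of each and more than 1 of either). Points are sums over all cells of cko or ctr, bars are exact 95% Poisson intervals for counting error; the sums are highest where more than the minimum was counted.

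What the cells share beyond the genes of the rule was first the rest of the division programme. The contrast with non-cycling cells is a description, since the cells were split by transcripts measured in the same cells. Of 33 S phase genes at 20 CPM or more, 23 were higher in cycling cells of all 6 samples, with a median log2 ratio over the list of 3.02. The same held for 10 of 14 nucleotide supply genes (median 1.99) and 24 of 40 mitosis genes (median 4.10), beside 11.9% of all 5816 genes at that level (median 0.084). Pclaf, a PCNA-binding protein, had 434, 478 and 206 CPM in cycling cells of cko samples 1, 2 and 3, against at most 1.8 CPM in their non-cycling cells. In cycling cells of ctr samples 1, 2 and 3 it had 392, 376 and 370 CPM, against at most 4.2 CPM in their non-cycling cells, so levels of Pclaf were alike in the cycling cells of 5 samples and lower in cko sample 3.

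Further genes higher in all 6 samples were Spc24, a kinetochore subunit (median log2 ratio 5.96), Stmn1, a microtubule destabiliser (5.20), the histone gene Hist1h2ap (4.55), whose reads can be shared with near-identical histone copies, Cks1b, a subunit of CDK complexes (4.06), and Gmnn, the licensing inhibitor geminin (3.03). Birc5, the chromosomal passenger survivin, had a median log2 ratio of 6.20, and Pcna, the polymerase clamp, 1.99. Among cyclins, CDKs and E2F factors 6 of 14 genes were higher in all 6 samples, beside 11.9% of all 5816 genes. They were Foxm1, the mitotic transcription factor (4.39), Ccne1 (3.66), E2f8 (2.70), Cdk2 (1.78), E2f1 (1.53) and Cdk4 (1.43). The D cyclins Ccnd1, Ccnd2 and Ccnd3, through which growth factors act, varied between samples, with log2 ratios of -0.42 to 2.54, -1.15 to 2.03 and -0.24 to 1.66.

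Some genes that restrain division were lower in cycling cells. Cdkn1a, which encodes the CDK inhibitor p21, was lower in all 6 samples (median log2 ratio -1.02), as were Btg1 (-0.97), an antiproliferative gene, and Klf2 (-0.52). Cdkn2c, the INK4 inhibitor p18, ran the other way and was higher in all 6 (3.44). None of 14 CSF1 and GM-CSF signalling genes was higher in all 6 samples and 6 were lower: the GM-CSF receptor chain genes Csf2ra (-0.64) and Csf2rb2 (-0.91), Cebpb (-1.36), Irf8 (-0.56), Egr2 (-0.41) and Dusp6 (-0.72). Genes lower in all 6 samples made up 8.32% of the 5816.

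The summed C1q genes were higher and Arg1 was lower in cycling cells than in non-cycling cells of the same sample, in 6 of 6 samples. C1qa alone was lower in cycling cells of cko sample 2 (603 against 644 CPM). C1qa, C1qb and C1qc together had 3471, 2480 and 7002 CPM in cycling cells of cko samples 1, 2 and 3, against 2246, 2372 and 2842 CPM in their non-cycling cells. In ctr samples 1, 2 and 3 they had 11490, 10150 and 19900 CPM in cycling cells, against 9333, 7598 and 9455 CPM in non-cycling cells. Every ctr value lay above every cko value in both kinds of cells. The median log2 ratio was 0.52 (SD 0.47 over 6 samples), and in cko sample 2 it was 0.064. With at least 2 UMIs of each rule gene the median was -0.0051, so the higher C1q of cycling cells was not seen under that stricter rule. When gate cells carrying 3 UMIs of another lineage list were left out, the median was 0.9753, higher in 6 of 6 samples. C1q then had 12220, 3824 and 13810 CPM in cycling cells of cko samples 1, 2 and 3, from 1, 3 and 5 cells. Their non-cycling cells had 2277, 2492 and 2904 CPM. Cycling cells of ctr samples 1, 2 and 3 then had 17450, 14180 and 18650 CPM, still above every cko value. In cko sample 3 the step between states was thus larger than the gap to cycling cells of ctr sample 2. Cells above the minimum held less C1q than cells at it: the genes had 2611 CPM in the 12 cko and 12450 CPM in the 55 ctr cells above it, and 9335 CPM in the 7 cko and 16580 CPM in the 21 ctr cells at it. Of 16 C1q macrophage state genes, C1qb and C1qc were higher and the signalling adaptor gene Tyrobp was lower in all 6 samples, with a list median of 0.345. Over all 5816 genes 11.9% were higher and 8.32% lower in all 6 samples (median 0.084), so the counts of the list lay near these shares. Apoe, the lipid carrier, had a median of 0.0003 and was higher in 3 of 6 samples.

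Arg1 had 337, 273 and 166 CPM in cycling cells of cko samples 1, 2 and 3, against 1721, 1417 and 1686 CPM in their non-cycling cells. In ctr samples 1, 2 and 3 it had 495, 7.59 and 232 CPM in cycling cells, from 197, 4 and 83 UMIs, against 1073, 672 and 926 CPM in non-cycling cells. Cycling cells were thus lower in every sample, and in them the cko and ctr values overlapped, whereas in non-cycling cells all cko values lay above all ctr values. The median log2 ratio was -2.36 (SD 1.81). Without gate cells carrying 3 UMIs of another lineage list it was -1.95, still lower in 6 of 6 samples. In ctr sample 1 the ratio was then -0.18, and cko sample 1 rested on 1 cell with 0 CPM. Over all cycling cells the tumour inflammatory list moved alike, with 20 of 25 genes lower in all 6 samples, beside 8.32% of all 5816 genes. The list median was -1.56. Among the lower genes were Clec4e, a lectin receptor (-2.68), Inhba, an activin subunit (-2.65), Il1rn, the IL-1 receptor antagonist (-2.21), and Thbs1, thrombospondin (-2.07). Nos2, the inducible nitric oxide synthase, had 0 UMIs in the 280067 UMIs of cko cycling cells, which allows up to 13.2 CPM by the exact Poisson interval, against 191 CPM in cko non-cycling cells, and 12, 1 and 0 UMIs in cycling cells of ctr samples 1, 2 and 3.

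Ly6c2, the Ly6C gene of recently arrived monocytes, was lower in cycling cells of all 6 samples (median log2 ratio -1.62). It had 3928, 2002 and 1029 CPM in cycling cells of cko samples 1, 2 and 3, and 565, 1477 and 535 CPM in those of ctr samples 1, 2 and 3, against 2866 to 4176 CPM in cko and 2059 to 3842 CPM in ctr non-cycling cells. In cko sample 1 the cells nearly matched their non-cycling counterparts (log2 ratio -0.088). Ly6c2 is not particular to monocytes here: at least 1 UMI was present in 51.2% of cko and 33.9% of ctr thinned T cells. In cko sample 1, 2 of 4 cycling cells carried at least 3 UMIs of T cell markers, and the part of T cell transcripts in the Ly6c2 levels was not tested. Without gate cells carrying 3 UMIs of another lineage list, the ratio of Ly6c2 was 1.89 in cko sample 1, from 1 cell, and 0.48 in cko sample 2, from 3 cells, so its direction in cko rests on few cells. Of 14 monocyte state genes 7 were lower in all 6 samples, beside 8.32% of all 5816 genes. None of 9 MHC class II genes was higher or lower in all 6 (median 0.049). Among genes with at least 50 CPM in the higher state and the same direction in all 6 samples, the largest median drops belonged to Slpi, a secreted protease inhibitor (-3.23), and Rgcc (-3.00).

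**Figure D3:**
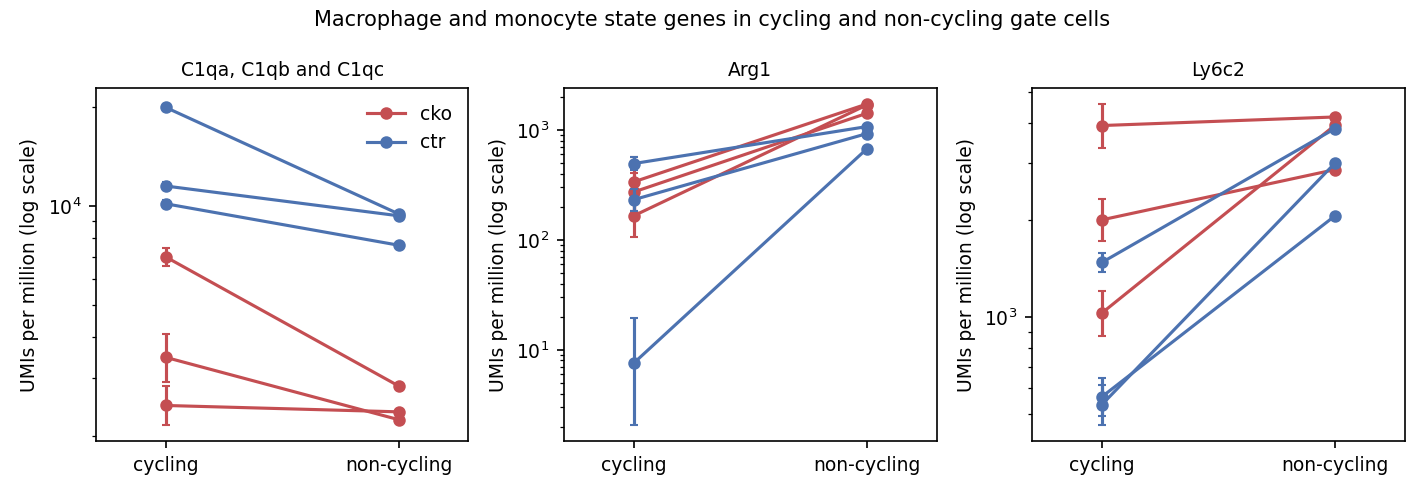
Summed CPM (vertical axes, log scale) of the C1q genes, Arg1 and Ly6c2 in cycling and non-cycling gate cells, with a line for each sample and exact 95% Poisson intervals for counting error at the cycling cells. C1q lines run down and Arg1 lines up towards the non-cycling cells in all 6 samples.

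Counted per thinned cell, the states combined in a graded way. At least 3 C1q UMIs were present in 10 of 18 cko and 61 of 76 ctr cycling cells (55.6% and 80.3%), against 35.8% of cko and 57.9% of ctr non-cycling cells and 0.391% of T cells, which should lack C1q. At least 2 Arg1 UMIs were present in 5 of 18 cko and 8 of 76 ctr cycling cells (27.8% and 10.5%), against 1592 of 3535 cko (45.04%) and 1476 of 5053 ctr (29.2%) non-cycling cells and 0.189% of T cells. All 13 Arg1-positive cycling cells were also C1q-positive. The combination of Arg1 without C1q was seen in 0 of 94 cycling cells, with a Wilson interval up to 3.93%, against 959 of 3535 cko (27.1%) and 621 of 5053 ctr (12.3%) non-cycling cells. Ccl8, a chemokine of mature macrophages, was present in 2 of 18 cko cycling cells (11.1%), both from cko sample 3, and in 15 of 76 ctr cycling cells (19.7%). In non-cycling cells its shares were 2.12% in cko and 7.09% in ctr, and in T cells 0.480% in cko and 1.48% in ctr.

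Read the other way, cycling cells made up 0.716 ± 0.125% of C1q-positive gate cells in cko and 1.86 ± 0.501% in ctr, without overlap (SD, n = 3 each; exact permutation p = 0.1). Among C1q-negative gate cells they made up 0.390 ± 0.380% in cko and 0.718 ± 0.496% in ctr, with overlap (SD, n = 3 each; exact permutation p = 0.5). The cycling cells in these shares were found from all UMIs, so depth enters them, and whether the genotype difference itself differs between the states was not tested. Among Ly6c2-positive cells the share was 0.405 ± 0.220% in cko and 0.553 ± 0.189% in ctr, with overlap (SD, n = 3 each; exact permutation p = 0.5). Among Ly6c2-negative cells the share was 1.06 ± 0.565% in cko and 3.595 ± 1.11% in ctr (SD, n = 3 each; exact permutation p = 0.1).

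Within the cycling cells, no gene passed the threshold between genotypes. Counts summed per sample over cycling cells held only 41492, 87906 and 150669 UMIs in cko samples 1, 2 and 3, against 397972, 527297 and 357194 UMIs in ctr samples 1, 2 and 3. By edgeR's quasi-likelihood test, 0 of 3513 genes (0.0%) had a Benjamini-Hochberg adjusted p under 0.05, and 280 had an unadjusted p under 0.05, while DESeq2 called 33 of 897 genes. On simulated counts of this size the edgeR fit recovered 13 of 100 genes changed 2-fold and 72 of 100 changed 4-fold, so 2-fold differences would mostly be missed. The lowest adjusted p belonged to Il1b, the inflammatory cytokine IL-1β: it had 5013, 5665 and 3100 CPM in cycling cells of cko samples 1, 2 and 3, and 1452, 1652 and 1624 CPM in those of ctr samples 1, 2 and 3. All cko values lay above all ctr values, as in 6.03% of all genes tested (log2 fold change 1.57, SE 0.22, edgeR adjusted p = 0.057). Cdkn1a lay likewise above, with 1197 ± 390 CPM in cko and 440 ± 84 CPM in ctr (SD, n = 3 each; log2 fold change 1.47, SE 0.28, edgeR adjusted p = 0.20).

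All 16 tested genes of the C1q state had a negative log2 fold change in cycling cells (median -1.60, beside -0.024 over all 3513 genes), and in 7 of them every cko value lay below every ctr value, as it did in 9.62% of all genes tested. Apoe had 1470, 3083 and 2403 CPM in cycling cells of cko samples 1, 2 and 3, and 8865, 4430 and 11910 CPM in those of ctr samples 1, 2 and 3, without overlap (log2 fold change -1.81, SE 0.41, edgeR adjusted p = 0.36). Arg1 had a log2 fold change of 0.04 (SE 1.06). Division genes had lower medians in cko: -0.574 over 28 mitosis genes, -0.327 over 25 S phase genes and -0.056 over 11 nucleotide supply genes, none of which passed. H2-Ab1, an MHC class II chain, had 7657 ± 479 CPM in cko and 7939 ± 2151 CPM in ctr cycling cells (SD, n = 3 each).

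The genes of division could be compared between genotypes without choosing cells by Mki67 and Top2a, by summing counts over all gate cells of a sample. In such sums, fewer dividing cells and less RNA per dividing cell cannot be told apart. Among 34 S phase genes 19 were lower in cko and 0 higher by edgeR's quasi-likelihood test at an adjusted p of 0.05 (median log2 fold change -0.678), 9 of 17 nucleotide supply genes were lower and 0 higher (-0.546), and 20 of 41 mitosis genes were lower and 0 higher (-1.14). Over all 11457 genes 10.4% were lower and 11.9% higher, with a median of -0.017. Summed over the list, mitosis genes had 535, 527 and 518 CPM in cko samples 1, 2 and 3, and 667, 537 and 662 CPM in ctr samples 1, 2 and 3. This gap was smaller than the list median, and the mitosis genes that passed had group means of at most 10.3 CPM. In non-cycling cells the mitosis sums averaged 485 CPM in cko and 473 CPM in ctr. Genes induced by tissue dissociation also differed in these sums: 9 of 18 were lower in cko and 2 higher, and together they had 14430 to 17650 CPM in cko and 22340 to 23910 CPM in ctr, without overlap. Their part in the other differences was not tested; in cycling cells their sums overlapped, with 12150 to 16170 CPM in cko and 9622 to 14530 CPM in ctr.

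Mcm6, a subunit of the helicase that opens replication origins, had 5.41, 7.69 and 7.95 CPM in cko samples 1, 2 and 3, and 17.4, 16.7 and 14.1 CPM in ctr samples 1, 2 and 3 (log2 fold change -1.12, SE 0.16, edgeR adjusted p = 0.0013). It was lower in every cko sample, and Mcm2, Mcm3, Mcm5 and Mcm7 of the same complex also passed, with log2 fold changes of -1.25, -0.96, -1.01 and -1.18. Tk1, the thymidine kinase of S phase, had 1.38, 3.85 and 2.65 CPM in cko samples 1, 2 and 3, and 16.0, 8.57 and 11.8 CPM in ctr samples 1, 2 and 3 (log2 fold change -2.17, SE 0.34, edgeR adjusted p = 0.0039). Dctpp1, a dCTP pyrophosphatase, was at 22.7 ± 1.83 CPM in cko and 36.3 ± 2.19 CPM in ctr (SD, n = 3 each; log2 fold change -0.60, edgeR adjusted p = 0.0032).

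Of the mitosis genes, Anln, the furrow protein anillin, had 2, 2 and 5 UMIs in cko samples 1, 2 and 3, and 22, 51 and 43 UMIs in ctr samples 1, 2 and 3 (log2 fold change -2.75, SE 0.39, edgeR adjusted p = 0.0014). Ccnb2, a B-type cyclin, had 17, 23 and 14 UMIs in cko samples 1, 2 and 3, and 142, 157 and 206 UMIs in ctr samples 1, 2 and 3 (-2.36, SE 0.42, edgeR adjusted p = 0.0072). Both were lower in each cko sample than in each ctr sample, as were 27.0% of all genes tested and Kif20a, a mitotic kinesin (-2.27), Cdc20, an activator of the anaphase-promoting complex (-1.98), and Cdk1, the mitotic kinase (-0.97), which all passed. Of the rule genes, Top2a passed (log2 fold change -0.90, SE 0.27, edgeR adjusted p = 0.044). Mki67 had a value of -0.67 (SE 0.25, edgeR adjusted p = 0.085), and its groups overlapped. Pcna, which is also used in DNA repair and was abundant in non-cycling cells, had 63.3 ± 5.57 CPM in cko and 60.2 ± 5.14 CPM in ctr (SD, n = 3 each; log2 fold change 0.15, edgeR adjusted p = 0.31).

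With cko samples 1 and 3 added together, 11 S phase, 5 nucleotide supply and 11 mitosis genes were lower and 0 higher, beside 680 of 12019 genes. Without cko sample 1 the numbers lower were 10, 5 and 10, beside 555 of 11737 genes. Without cko sample 3 they were 11, 5 and 10, beside 620 of 11637 genes, and without ctr sample 3 they were 12, 5 and 10, beside 627 of 11611 genes. The 3 medians stayed negative in each of these fits. Without gate cells that carried 3 UMIs of another lineage list, 13 S phase, 8 nucleotide supply and 14 mitosis genes were lower in cko, beside 1123 of 11104 genes. In all gate cells 3 of 6 NK cell markers were lower and 0 higher in cko, and 1 of 10 T cell markers was higher and 0 lower. Of 5 neutrophil markers 3 were higher and 0 lower, beside 10.4% lower and 11.9% higher of all 11457 genes. NK cell markers summed to 18.2 to 38.1 CPM in cko and 38.2 to 66.2 CPM in ctr non-cycling cells. In gate cells with neither Mki67 nor Top2a, 9 of 29 S phase, 6 of 17 nucleotide supply and 3 of 25 mitosis genes were lower in cko and 1, 0 and 1 were higher, beside 9.68% lower of all 11171 genes.

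The per-cell measure of the same list moved alike. At least 3 mitosis genes were present in 5.95%, 4.86% and 5.28% of thinned gate cells of cko samples 1, 2 and 3, and in 7.61%, 6.14% and 8.12% of those of ctr samples 1, 2 and 3. The groups did not overlap (5.36 ± 0.547% in cko and 7.29 ± 1.03% in ctr, SD, n = 3 each; exact permutation p = 0.1), while neutrophils reached 14.4% in cko (13 of 90 cells) and 3.33% in ctr (1 of 30), and mature dendritic cells 12.2% in cko (5 of 41) and 2.63% in ctr (2 of 76). The cells with at least 3 mitosis genes numbered 86, 39 and 83 in cko samples 1, 2 and 3, and 102, 152 and 155 in ctr samples 1, 2 and 3. Of them 441 were non-cycling (172 cko and 269 ctr) and 67 were cycling cells (12 cko and 55 ctr). The rest carried only 1 of Mki67 and Top2a, and their part in the difference was not tested. Among non-cycling cells alone the shares were 4.87% in cko (172 of 3535) and 5.32% in ctr (269 of 5053). In T cells of the same samples the shares were 33.9 ± 2.33% in cko and 29.4 ± 3.35% in ctr (SD, n = 3 each; exact permutation p = 0.3).

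**Figure D4:**
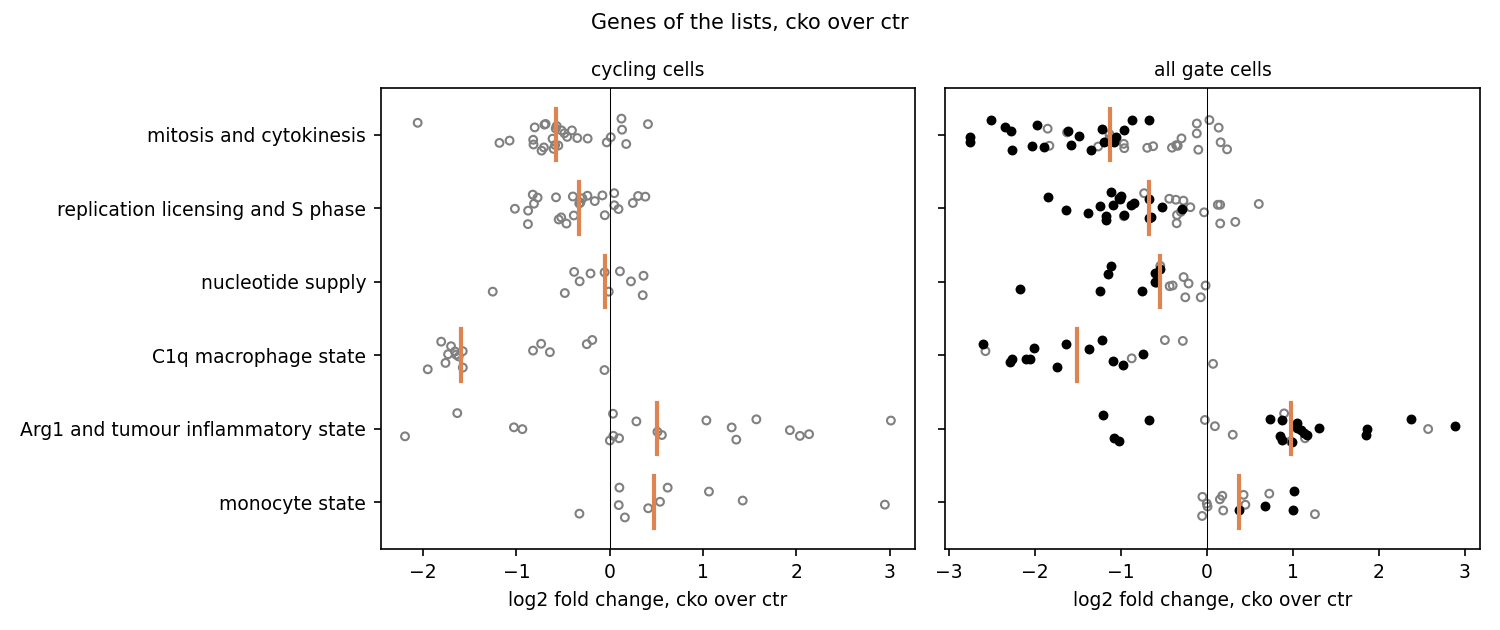
Log2 fold change, cko over ctr (horizontal axes), of the genes of 6 lists (rows) in cycling cells (left) and all gate cells (right). Each circle is a gene, filled where the edgeR adjusted p is under 0.05, and the bar marks the list median; no circle is filled at the left, and at the right the filled circles of the division lists and the C1q list lie below 0.

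The promoters of division genes carry the known elements of cell cycle control, and those of the rule genes and of the gene with the lowest adjusted p in each division list are shown from 250 bases before to 50 after the RefSeq start (GRCm38.p6, minus strand in each). Capitals mark matches on either strand of CCAAT (the NF-Y box), TTTGAA (the cell cycle genes homology region, CHR) and GCGGGAA (an E2F-type site). The windows are chr7:135716330-135716629 for Mki67, chr11:99024140-99024439 for Top2a, chr1:128359656-128359955 for Mcm6, chr7:127260618-127260917 for Dctpp1 and chr9:22389157-22389456 for Anln.
Mki67: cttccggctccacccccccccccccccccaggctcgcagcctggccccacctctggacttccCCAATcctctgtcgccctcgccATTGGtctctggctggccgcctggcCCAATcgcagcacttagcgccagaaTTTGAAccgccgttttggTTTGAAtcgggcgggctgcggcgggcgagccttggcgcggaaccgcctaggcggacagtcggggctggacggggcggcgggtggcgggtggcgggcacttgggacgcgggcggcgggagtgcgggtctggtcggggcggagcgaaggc
Top2a: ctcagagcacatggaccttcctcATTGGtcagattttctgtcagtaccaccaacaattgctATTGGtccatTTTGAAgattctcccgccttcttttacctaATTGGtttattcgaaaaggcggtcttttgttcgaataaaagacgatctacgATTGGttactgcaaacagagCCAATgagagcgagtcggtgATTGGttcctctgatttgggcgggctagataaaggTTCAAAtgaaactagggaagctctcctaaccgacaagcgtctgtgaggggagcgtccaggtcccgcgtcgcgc
Mcm6: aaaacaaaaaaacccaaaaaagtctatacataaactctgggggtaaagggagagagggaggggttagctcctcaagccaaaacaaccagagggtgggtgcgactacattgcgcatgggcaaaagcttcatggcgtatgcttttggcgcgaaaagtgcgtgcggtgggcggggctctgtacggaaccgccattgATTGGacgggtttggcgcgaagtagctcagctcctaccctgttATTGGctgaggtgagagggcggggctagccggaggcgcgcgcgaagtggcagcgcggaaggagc
Dctpp1: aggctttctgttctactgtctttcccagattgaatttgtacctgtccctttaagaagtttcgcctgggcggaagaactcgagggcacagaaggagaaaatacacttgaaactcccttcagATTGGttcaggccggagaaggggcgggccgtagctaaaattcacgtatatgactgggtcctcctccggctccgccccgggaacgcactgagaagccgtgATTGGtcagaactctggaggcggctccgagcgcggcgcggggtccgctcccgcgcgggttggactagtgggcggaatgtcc
Anln: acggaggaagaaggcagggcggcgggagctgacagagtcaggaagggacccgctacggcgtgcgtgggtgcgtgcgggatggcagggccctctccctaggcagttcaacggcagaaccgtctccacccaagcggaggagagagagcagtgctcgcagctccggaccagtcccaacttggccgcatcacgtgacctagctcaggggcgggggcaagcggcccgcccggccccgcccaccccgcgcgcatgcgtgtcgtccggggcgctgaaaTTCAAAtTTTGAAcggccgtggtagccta
The Mki67 window held 3 CCAAT and 2 TTTGAA matches, that of Top2a 6 and 2, and that of Anln 2 TTTGAA matches, whereas the windows of Mcm6 and Dctpp1 held 2 CCAAT matches each. Only these exact letters were searched, so a window without GCGGGAA may still hold another form of E2F site. TTTGAA occurred in 29 of 37 matched mitosis promoters (78.4%), against 3 of 28 S phase promoters (10.7%), 1 of 16 nucleotide supply promoters (6.25%) and 18.1% of 27025 genes' promoters. GCGGGAA occurred in 1 mitosis promoter (2.7%), 16 S phase promoters (57.1%) and 2 nucleotide supply promoters (12.5%), against 4.66% of all. CCAAT occurred in 75.7%, 64.3% and 56.2% of mitosis, S phase and nucleotide supply promoters, against 37.9% of all. A match is a description of the letters and not of a bound site.

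The last comparison asked whether the genotype difference of a gene differed between cycling and non-cycling cells. By edgeR's quasi-likelihood test of this interaction, 24 of 10176 genes (0.236%) passed, 14 with a higher (0.138%) and 10 with a lower (0.0983%) genotype effect in cycling cells, and 0 of them were genes of the 3 division lists, C1q genes or Arg1. On simulated counts this fit recovered 0 of 100 genes changed 2-fold and 16 of 100 changed 4-fold, so most such differences would be missed. With cko samples 1 and 3 added together 6 passed, and without the cells of highest Scrublet scores 4. The p-values of this fit rest mainly on a spread shared over genes and little on that of each gene between samples. The lowest adjusted p was that of Ccl5, a chemokine of T cells, NK cells and macrophages. Ccl5 had 10, 11 and 26 UMIs, or 241, 125 and 173 CPM, in cycling cells of cko samples 1, 2 and 3, and 575, 658 and 1218 CPM in those of ctr samples 1, 2 and 3. In non-cycling cells the levels were alike, 1163 to 1614 CPM in cko and 1248 to 1466 CPM in ctr, so the gap was in the cycling cells (difference of log2 fold changes -2.42, SE 0.31, edgeR adjusted p = 1.05e-10). NK cell markers summed to 795, 68.3 and 0 CPM in cycling cells of cko samples 1, 2 and 3, and to 681, 5.69 and 179 CPM in those of ctr samples 1, 2 and 3, with overlap. T cell markers summed to 241, 205 and 106 CPM in cko and 204, 24.7 and 36.4 CPM in ctr cycling cells. The part of such cells in the Ccl5 difference was not tested.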

How the data were processed

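The authors deposited raw UMI counts for each barcode and gene in 3 cko and 3 ctr samples, made with Cell Ranger 7.0.0 on GRCm38 (mm10) per the submitters' processing notes; deposited contig tables list TCR chains with UMI counts. No source used here states a prior step against doublets or free RNA. Barcodes under 300 genes, under 500 UMIs or over 10% mitochondrial UMIs were left out. Counts were summed per sample over cycling, non-cycling or all gate cells and tested with edgeR 4.0.16 (quasi-likelihood, TMM, filterByExpr, robust; limma 3.58.1, R 4.3.3), with Benjamini-Hochberg adjustment over all genes tested and a threshold of 0.05; the interaction took the sample as a block. DESeq2 1.42.0 was an alternative. Log2 ratios of cycling over non-cycling cells were taken from CPM with a pseudocount of 1 CPM. Cells were thinned to 2610 UMIs, the 10th percentile of gate cells. Exact two-sided permutation tests over samples (scipy 1.17.1) compared shares. Scrublet (scanpy 1.11.5) called too few doublets in some samples (0 to 175), so the highest scores, 0.8% per 1000 barcodes, were left out as an alternative; doublets were kept otherwise. Fits were tested on simulated data.

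The cells, the gene lists and the tests were chosen with earlier results of these data known, and the sum over all gate cells, the mitosis-gene share and the cells without other-lineage markers were added after seeing the data. Named genes were the list members and, by rule, up to 10 genes each way by size of change among those past the threshold, without overlap between groups and with at least 20 CPM in the higher group; for cycling over non-cycling cells, those with the same direction in all 6 samples and at least 50 CPM in the higher state. Promoter sequences are from RefSeq (GRCm38.p6), with the first entry of each gene. Where p-values use these replicates, they measure the spread between the labelled samples, in the edgeR fits moderated by a spread shared over genes. In the interaction fit the shared part dominated, so its p-values say little about the spread of a single gene between samples. For example, Cd209a passed with 0, 20 and 27 UMIs in cycling cells of cko samples 1, 2 and 3. Those of ctr samples 1, 2 and 3 held 0, 8 and 0 UMIs of it.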

Additional observations from a re-analysis of the deposited data

Results flagged for a closer look

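For 12 genes the genotype effect differed between cycling and non-cycling gate cells by edgeR's quasi-likelihood interaction test (adjusted p under 0.05), with the ratios of cycling to non-cycling cells of all 3 cko samples on one side of those of all 3 ctr samples. Values are differences of log2 fold changes, cycling minus non-cycling, and many rest on few UMIs. Lower effects in cycling cells were found for Ccl5 (-2.42), AW112010 (-1.29), Zmynd15 (-3.09), the actin regulator Marcksl1 (-1.995), the monocyte chemokine Ccl12 (-1.97), the p53 ubiquitin ligase Mdm2 (-2.33), the MHC class I gene H2-Q6 (-1.33), which has close relatives, Zfp516 (-10.75) and Nos2 (-11.16). The Zfp516 and Nos2 values are not sizes of change, since both genes had 0 UMIs in cycling cells of all 3 cko samples. In cycling cells of ctr samples 1, 2 and 3, Zfp516 had 12, 17 and 4 UMIs and Nos2 had 12, 1 and 0 UMIs. Higher effects were found for Tnfaip6 (4.09), with 40.9 CPM on average in cko and 1.26 CPM in ctr cycling cells, the MHC class II peptide-loading gene H2-DMb2 (1.57) and the iron carrier Trf (1.31). Cycling cells of cko samples carried dendritic cell markers at 96.4 to 296 CPM in sum, those of ctr samples at 33.6 to 140 CPM; their part in these values was not tested.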

How the results depend on the processing

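The difference in the thinned cycling share kept its negative sign under all 16 alternatives, from -0.784 percentage points without thinning to -0.0116; leaving out 1 sample gave -0.240 to -0.0732. The mitosis-gene share difference ranged from -2.50 to -1.51 over its 8. The number of genes called in cycling cells was 0, and became 30 with a replicate block, 82 with no filter, 33 with DESeq2, 1 without TCR-bearing barcodes, 4 with at least 6 Lyz2 UMIs and 0 to 18 when 1 sample was left out (18 without cko sample 3). In non-cycling cells 2291 genes were called, 1300 with cko samples 1 and 3 added together and 1094 to 2458 without 1 sample. In all gate cells 2559 were called, 1480 with those samples added and 1256 to 2605 without 1. The interaction called 24, 6 with those samples added, 4 without the highest Scrublet scores, 8 with at least 2 UMIs of Mki67 and Top2a and 11 to 21 without 1 sample. The C1q log2 ratio of 0.52 was 1.08 in sums of thinned cells and -0.0051 with at least 2 UMIs of each gene, and 0.42 to 0.63 without 1 sample. In sums of thinned cells, and with at least 6 Lyz2 UMIs (median 0.53), C1q was higher in cycling cells of 5 of 6 samples and lower in 1. Arg1, at -2.36, was -5.23 with at least 2 UMIs of each and -2.37 to -2.35 without 1 sample. The causes of these shifts were not tested.

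Same-numbered samples deviated together only weakly (correlations of 0.103, -0.025 and 0.154 in cycling cells). The labels do not state that the replicate numbers pair the samples, and correlations between so few samples cannot decide it. A replicate block gave 30 called genes in cycling cells, 2178 in non-cycling cells, 2405 in all gate cells and an exact permutation p of 0.5 for the share, where 0.25 is the smallest possible. Not every sample correlated best with its own number. The setting of 2 UMIs of each gene was not run for non-cycling cells, which it leaves unchanged. Depth limits the cycling cells of cko most: 19 cells and 280067 UMIs.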
